A study of Triticum aestivum with 14 samples.

Results

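The vernalization response of the shoot apex was described from the accessible chromatin regions (ACRs) called in this tissue before and after cold treatment of winter wheat. An ACR of the unvernalized list that shared no base with any vernalized ACR was counted as lost. A vernalized ACR that shared no base with any unvernalized ACR was counted as gained, and all others were retained. These 2 lists held 132696 and 154639 ACRs, which is 287335 of the 892288 ACRs called over all tissues. All plants were of the cultivar AK58, with no other genotype and no agent other than cold. Unvernalized shoot apex came from plants grown for 2 weeks, and vernalized shoot apex from plants that spent 1 month in a cold chamber at 4°C followed by 1 day under greenhouse conditions. The plants of both groups thus differed in age as well as in cold, and these cannot be told apart. The study described 14 samples in 7 groups of 2, which are leaf, axillary bud and shoot apex in both conditions and input DNA. One list was used for each tissue and condition. The sources used here do not state if a list stands for 1 replicate or for both pooled. The lists hold positions only, so the identity of the tissue could not be checked against marker genes.

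ATAC-seq uses the transposase Tn5, which inserts sequencing adapters into DNA that is not wrapped in nucleosomes, so that open promoters, enhancers and other regulatory sequence stand out as peaks. The shoot apex holds the meristem that forms leaves during vegetative growth and switches to forming the spike once a winter cultivar has gone through enough cold. Bread wheat is an allohexaploid with A, B and D sub-genomes, and on its large chromosomes genes and recombination are concentrated towards the ends while the interior around the centromere is rich in repeats.

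With 1 list per condition there is no replicate spread and no test, and every difference given here is a difference between lists. Intervals in parentheses are 95% Wilson intervals for shares. Only counting error is covered by them, and ACRs that lie side by side are not independent of each other. Read depth behind the lists was not used. The lists also differed in how ACR edges were cut. A width made only of whole bins of the authors' filter was found for 12.9% of unvernalized and 77.6% of vernalized ACRs, and this difference and the effect of cold cannot be told apart.

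More ACRs were gained than lost after cold, and the 2 kinds lay in different parts of the chromosomes. In the unvernalized list 43159 ACRs were lost, a background share of 32.5%, and in the vernalized list 68363 were gained, a background share of 44.2%. The study's own test of Tn5 insertions within ACRs called far fewer shoot apex ACRs as changed, and fewer than in leaf or axillary bud. Lost and gained ACRs here are differences between lists and not tested changes. The vernalized list was also the longer one. With both lists cut to an equal number of their widest ACRs, 51861 were gained and 47695 lost, a smaller excess. The difference between these counts follows from list length and from how many ACRs of each list are retained. With equal lengths it only says that more ACRs were retained in the unvernalized than in the vernalized list. Lost ACRs were weighted towards the chromosome ends and gained ACRs towards the interior. With the outer 10% of the length at each end taken as distal, 51.3% of lost ACRs (50.8% to 51.7%) but 35.6% of gained ACRs (35.2% to 36.0%) were distal. Retained ACRs lay between these values, at 44.6% in the unvernalized and 45.0% in the vernalized list. The distal share of lost ACRs was above that of gained ACRs on each of the 21 chromosomes. In bulk tissue, fewer cells of a type and less accessible chromatin per cell cannot be told apart, here and in all results that follow.

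The interior accounted for nearly the whole rise in ACR number. It held 70642 ACRs before and 91518 after vernalization, a rise of 29.6%, with 44025 gained and 21039 lost, or 2.09 gained per lost ACR. The distal zones held 62054 ACRs before and 63121 after, a rise of 1.72%, with 24338 gained and 22120 lost. Turnover was thus large in the distal zones too, where 35.6% of unvernalized ACRs were lost and 38.6% of vernalized ACRs were gained, but there losses and gains were close to each other in number.

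**Figure D1:**
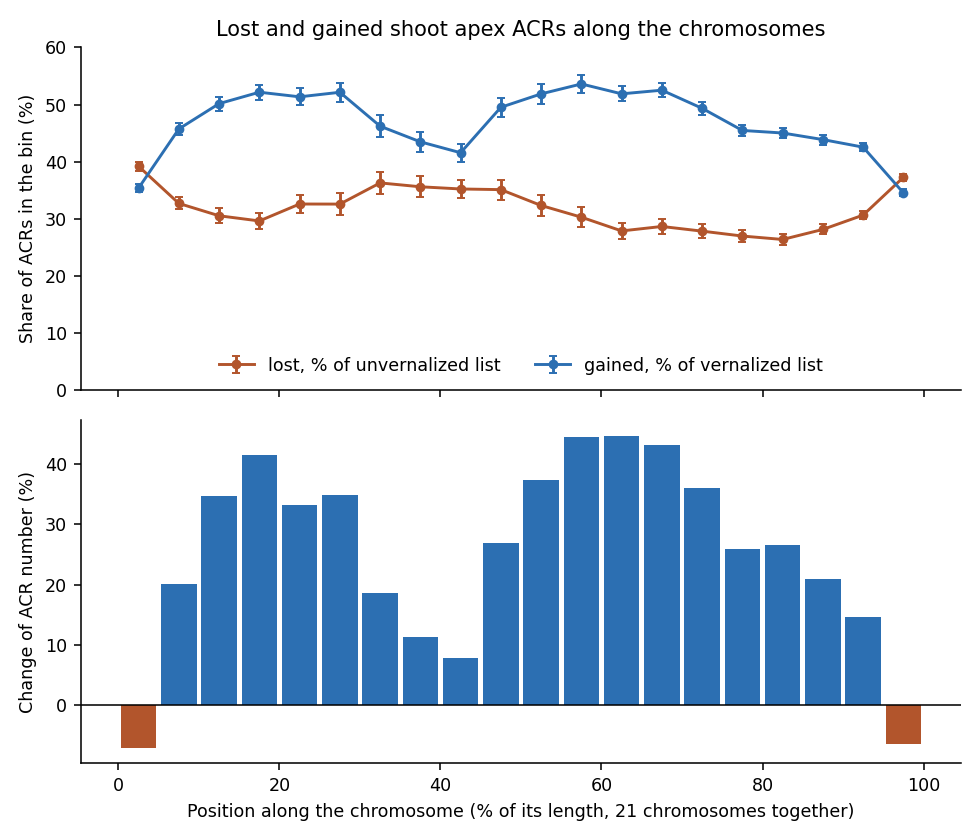
Upper plot, share of unvernalized shoot apex ACRs that were lost and of vernalized ACRs that were gained (%), in bins of 5% of chromosome length over the 21 chromosomes, with 95% Wilson intervals as bars. Lower plot, change of ACR number between the 2 lists in the same bins (%): the number fell in the outermost bin at each end and rose in all 18 bins between them, least at 40% to 45% of the length.

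The balance turned from loss to gain over a distance of about 20 Mb from the chromosome ends. Within 5 Mb of an end the number fell from 7112 to 5828 ACRs, a change of -18.1%. There 42.8% of unvernalized ACRs were lost and 30.8% of vernalized ACRs were gained, or 0.589 gained per lost ACR. The number changed by -10.7% between 5 and 10 Mb from an end and by -4.63% between 10 and 20 Mb. It rose by 6.18% between 20 and 50 Mb, by 23.4% between 50 and 100 Mb and by 30.5% farther in. Of the 42 chromosome ends, 37 had fewer ACRs within 5 Mb after vernalization, 3 had more and 2 had equal numbers. Among those with more was the nearly empty start of 1B, with 1 ACR before and 2 after. By relative position, the outermost 5% at the start of the chromosomes changed by -7.07% and that at the end by -6.47%. The rise was greatest between 60% and 65% of the length, at 44.6%, and it dipped to 7.75% between 40% and 45%, where 41.6% of vernalized ACRs were gained.

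The opposite leaning of lost and gained ACRs was also present within each kind of edge. Of lost ACRs, 51.3% were distal among those with whole-bin widths and 51.2% among the others. Of gained ACRs, 35.4% were distal among those with whole-bin widths and 36.3% among the others. The share lost was 31.6% for whole-bin widths and 32.7% for other widths, and the share gained was 41.9% and 52.1%.

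All 3 sub-genomes took part to a like extent. The number of ACRs rose by 17.8% on A, 14.7% on B and 17.1% on D, with 1.64 gained per lost ACR on A and 1.61 on D. On B 21651 were gained and 14400 lost. The D sub-genome held 34.3% of lost ACRs (33.8% to 34.7%) and 34.8% of gained ACRs (34.5% to 35.2%). These were near its shares of retained ACRs, 34.4% in the unvernalized and 34.3% in the vernalized list. All of these were above its 28.1% of the length. In the interior the number gained per lost ACR was 2.13 on A, 1.94 on B and 2.22 on D, and in the distal zones it was 1.17, 1.04 and 1.09.

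Chromosome 6B stood apart from the others. It had the highest share lost, 37.6% (36.5% to 38.7%), and the lowest share gained, 38.8% (37.7% to 40.0%), so that 7059 ACRs before and 7130 after vernalization differed by 1.01%. On the other 20 chromosomes the rise was largest on 1A, at 21.8%, and smallest on 7A, from 6556 to 7406 ACRs. The lowest share lost was 29.9%, on 4D, and the highest share gained 45.7%, on 3B. On 6B the distal zone at the start of the chromosome fell from 1665 to 1458 ACRs, and that at the end had 716 lost and 615 gained. The interior of 6B had 1206 lost and 1655 gained, at 1.37 gained per lost ACR the lowest interior value of the 21. Its homoeolog 6D had 540 lost and 376 gained in the zone at the start, but 746 lost and 1732 gained in the interior. Homoeolog 6A had 272 lost and 269 gained at the start, and 740 lost and 1450 gained in the interior. On 6B losses thus exceeded gains at both ends, whereas on 6D they did so at the start and not at the end, where 457 were lost and 633 gained. Losses also exceeded gains at both ends of 7A, with 603 and 494 at the start and 720 and 626 at the end, but its interior had 958 lost and 2137 gained.

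**Figure D2:**
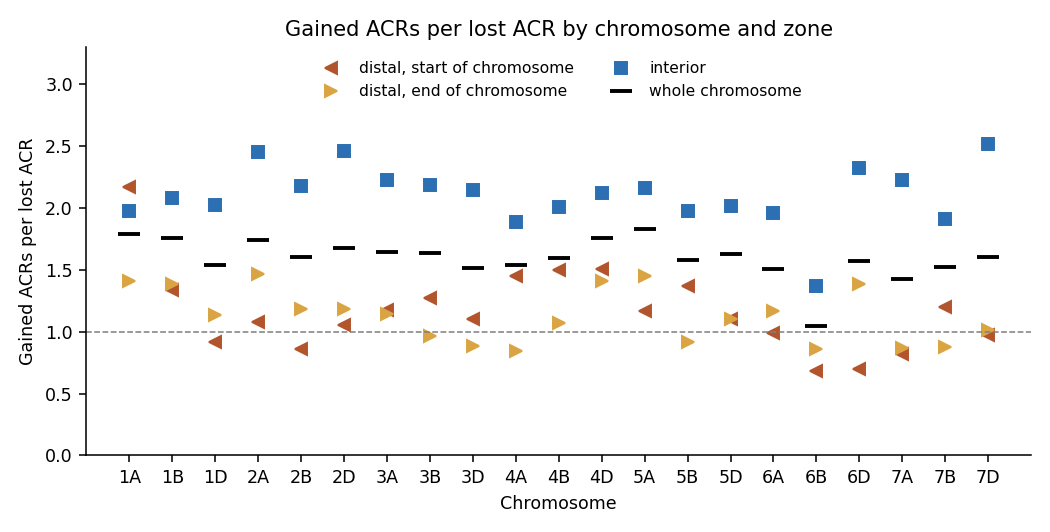
Number of gained per lost shoot apex ACRs on each chromosome, for the outer 10% of the length at the start, the outer 10% at the end, the interior, and the whole chromosome (bars); the dashed line marks equal numbers. Interior values were above 1 on all 21 chromosomes, from 1.37 on 6B to 2.52 on 7D, while each distal zone was above 1 on 14 and below 1 on 7. The zone at the start of 1B was nearly empty, with 8 gained and 6 lost ACRs.

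Among distal zones, the start of chromosome 1A had the highest ratio of gains to losses, on small counts of 386 and 178. It had 2.17 gained per lost ACR and its number rose by 42.2%, the highest of the zones at the start. The lowest values of these zones were 0.681 gained per lost ACR on 6B and a change of -13.2% in number on 6D. At the end of the chromosomes the number gained per lost ACR was between 0.842 on 4A and 1.47 on 2A.

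Lost and gained ACRs were narrower on the median than retained ones. Widths under 300 bp made up 52.7% of lost and 44.3% of gained ACRs, against 31.1% of the whole unvernalized and 26.7% of the whole vernalized list. The lost ACRs had a median width of 290 bp and the gained ones of 350 bp, against 593 bp and 736 bp for retained ACRs of the unvernalized and vernalized list. Of unvernalized ACRs under 300 bp, 55.1% were lost, whereas 4.33% of those from 1000 to 2000 bp and 0.861% of those of 2000 bp or more were lost. The same classes of the vernalized list had gained shares of 73.4%, 9.03% and 1.22%. A wider interval offers more bases in which the minimum overlap of 1 bp can fall, so these shares are in part set by the rule. Lost ACRs covered 15.7 Mb and gained ACRs 27.9 Mb, out of 88.5 Mb and 107.7 Mb covered by the lists. In the interior the median width was 283 bp for lost and 350 bp for gained ACRs, and in the distal zones 297 bp and 347 bp.

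**Figure D3:**
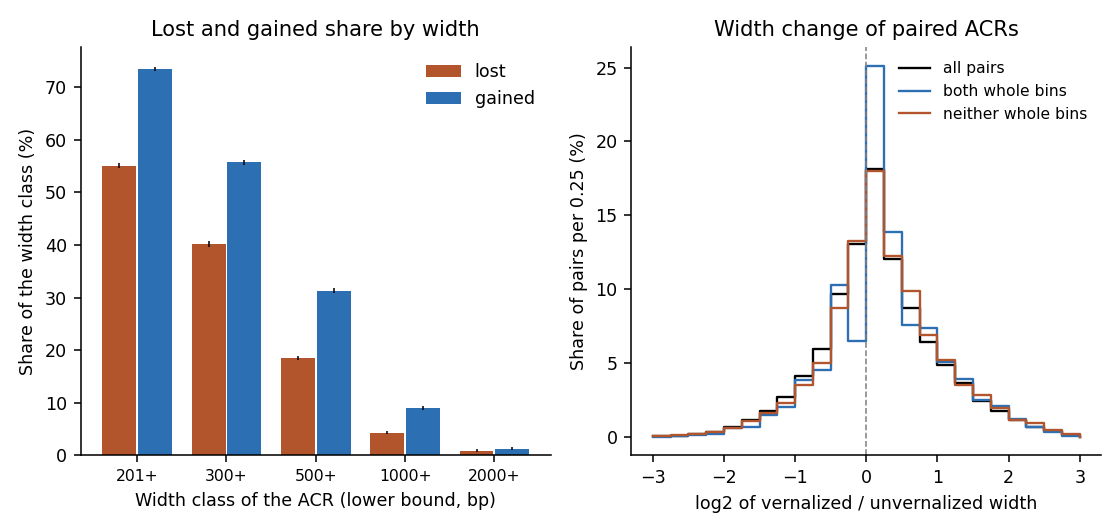
Left, share of ACRs that were lost (of the unvernalized list) or gained (of the vernalized list) by width class (%), with 95% Wilson intervals. Right, distribution of the log2 ratio of vernalized over unvernalized width for pairs of retained ACRs, in steps of 0.25, for all 69668 pairs, for the 7481 in which both widths were whole bins and for the 11858 in which neither was; each distribution has more pairs above 0 (wider after vernalization) than below.

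Retained ACRs were on the median somewhat wider after vernalization. They formed 81033 groups of overlapping ACRs, of which 69668, or 86.0%, paired 1 unvernalized with 1 vernalized ACR. The median width of these pairs was 580 bp before and 650 bp after vernalization, and the median ratio of the 2 widths was 1.09, with an interquartile range of 0.822 to 1.56. The median is small beside the spread among pairs, since 58.4% were wider and 39.6% were narrower. A width at least 1.5 times as large was found in 18890 pairs (background 27.1%), and one at least 1.5 times as small in 10199 (background 14.6%). Whole-bin edges on both sides gave a ratio of 1.09 with 28.1% widened and 11.7% narrowed, and edges that were whole bins on neither side gave 1.13 with 29.4% and 12.7%. These subsets leave out most pairs, and the part of edge cutting in the median over all pairs was not tested.

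Widening went with position in the same way as gain. In the interior the median ratio was 1.13, with 29.7% of pairs widened (29.2% to 30.1%) and 13.1% narrowed. In the distal zones it was 1.04, with 23.8% widened (23.3% to 24.2%) and 16.7% narrowed. Among pairs with whole-bin edges on both sides the interior ratio was 1.15, over 4257 pairs, but the distal ratio was 1, over 3224 pairs, with a median difference of 0 bp. Equal widths were found in 637 of these distal pairs, while 47.5% were wider and 32.8% narrower. At 1.5 times, 24.1% were widened and 12.4% narrowed, against 31.2% and 11.1% of the interior pairs of the same kind. The distal median thus stayed at 1 although more pairs widened than narrowed. Chromosome 6B again had the lowest value, a ratio of 1.02 with 22.6% widened and 18.5% narrowed, and 2A the highest, 1.13. The A, B and D sub-genomes had medians of 1.09, 1.08 and 1.10. The ratio depended on which width was used to sort the pairs. Pairs under 300 bp before vernalization had a median ratio of 1.73, whereas those under 300 bp after it had 0.737. Narrow ACRs taken from one list thus met wider ones in the other, whichever list they came from.

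The remaining groups joined or divided ACRs. In 6580 groups several unvernalized ACRs met 1 vernalized ACR, and in 3837 groups 1 unvernalized ACR met several vernalized ones. In the first kind the covered length rose from 9.47 to 12.4 Mb, and in the second it fell from 7.59 to 6.27 Mb. The most divided unvernalized ACR lay on chromosome 4A from 713113698 to 713126639, and its 12942 bp met 7 vernalized ACRs that together covered 9391 bp. On 1A an ACR from 563285048 to 563295994 met 6 vernalized ACRs, of 3391 bp in all, and its own width was 10947 bp. The most joined vernalized ACR lay on 2D from 94319042 to 94327591, and its 8550 bp met 7 unvernalized ACRs of 3499 bp in all. On 1B an ACR of 12250 bp from 668126117 to 668138366 met 6 unvernalized ACRs of 7913 bp in all.

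Among pairs the largest rise in width was on chromosome 7B, where an ACR of 250 bp from 68343933 to 68344182 became one of 5150 bp from 68342683 to 68347832. No other list covered as much of the wide form: leaf ACRs covered 235 bp, vernalized leaf ACRs 0 bp, bud ACRs 2100 bp and vernalized bud ACRs 1350 bp. On 2D an ACR of 550 bp starting at 442993374 became one of 5250 bp, and there the unvernalized bud list already covered 4700 bp. On 6D an ACR of 625 bp starting at 414625661 became one of 4550 bp, and the unvernalized bud list covered 4426 bp. Most of the widened length on 2D and 6D was therefore already covered in a bud that had seen no cold.

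The largest fall in width was on 7A, where an ACR of 5775 bp from 704675758 to 704681532 became one of 1344 bp. Leaf moved the other way at this site, from 672 to 3244 bp covered, and so did bud, from 1350 to 3209 bp. On 1D an ACR of 3871 bp from 17959335 to 17963205 became one of 250 bp, while coverage in bud rose from 1600 to 3871 bp. On 5B an ACR of 3696 bp from 691409204 to 691412899 became one of 617 bp, and coverage in bud rose from 550 to 3696 bp. At each of these 3 sites the apex ACR narrowed while the length covered in axillary bud rose.

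Gained and lost ACRs were both found in axillary bud less often than the apex lists as a whole, and lost ACRs less often than gained ones. Axillary buds are shoot meristems in the leaf axils, from which tillers grow. Of gained ACRs 67.6% (67.3% to 68.0%) overlapped an ACR of unvernalized axillary bud, against 82.0% for the whole vernalized apex list. Of lost ACRs 42.5% (42.0% to 43.0%) did so, against 76.5% for the whole unvernalized apex list. Both bud lists, unvernalized and vernalized, held 55.1% of gained ACRs, against 75.4% of the whole vernalized apex list, and 31.2% of lost ACRs, against 71.4% of the whole unvernalized apex list. The vernalized bud list held 65.4% of gained ACRs (background 82.4%) and 43.1% of lost ones (background 78.3%). The bud lists covered 169.2 Mb and 143.3 Mb, more than any other list, and a longer covered length is overlapped more often.

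In leaf the order of lost and gained ACRs changed with the condition of the leaf list. The unvernalized leaf list held 29.3% of gained ACRs (background 51.5%) and 21.5% of lost ones (background 52.4%). The vernalized leaf list held 17.4% of gained ACRs (background 34.8%) and 24.9% of lost ones (background 40.0%). Retained ACRs of the vernalized list were in the bud list in 93.3% of cases and in the leaf list in 69.1%.

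**Figure D4:**
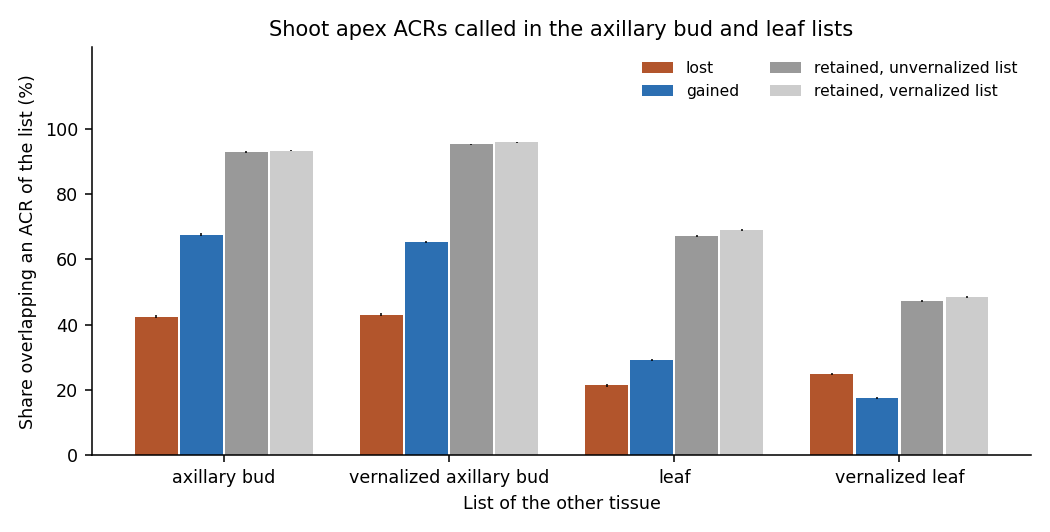
Share of lost, gained and retained shoot apex ACRs that overlapped an ACR of each list of axillary bud and leaf by at least 1 bp (%), with 95% Wilson intervals as bars, many of them too short to see. In both bud lists gained ACRs (67.6% and 65.4%) stood above lost ACRs (42.5% and 43.1%) and below retained ACRs.

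ACRs called in no other list made up 34.5% of lost (14874) and 19.4% of gained ACRs (13268), against 12.5% of the whole unvernalized and 9.53% of the whole vernalized apex list. Among retained ACRs the shares were 1.90% and 1.70% in the same order. This share was higher towards the ends. In the distal zones 40.0% of lost and 26.0% of gained ACRs were in no other list, and in the interior 28.6% and 15.8%. In the interior 74.0% of gained ACRs were in the unvernalized bud list, compared with 56.2% in the distal zones. Width went along with this, since 57.3% of gained ACRs under 300 bp and 82.3% of those of 500 bp or more were in the bud list.

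Sites found in the apex alone, with no overlap in the other 5 lists and no ACR of the other apex list within 10 kb, were described by their widest examples. The rule left 5475 gained and 3576 lost ACRs. The widest gained one was 1941 bp wide, on chromosome 3A from 742272283 to 742274223, 8.45 Mb from the end. The next, of 1550 bp, was on 5A from 569682428 to 569683977. The third, of 1450 bp, was on 7D from 371830779 to 371832228, in the interior, and the nearest unvernalized apex ACR was 438.6 kb away. Among the lost, the widest was 5105 bp wide, on 1B from 683095057 to 683100161, 6.75 Mb from the end. It was followed by one of 2532 bp on 3D from 554382884 to 554385415 and one of 2448 bp on 5A from 3084046 to 3086493.

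Gained ACRs followed gained ones more often than they followed retained ones, and the same held for lost ACRs. The ACR next to a gained one was itself gained in 50.5% of cases, and the ACR next to a retained one in 39.2%. For neighbours up to 1 kb apart these shares were 51.8% and 30.6%. The ACR next to a lost one was lost in 37.5% of cases and that next to a retained one in 30.1%, and up to 1 kb apart in 39.8% and 25.9%. Since gained and lost shares differ along the chromosome and by width, neighbours also share position and width, whose part in these values was not tested. Gained ACRs lay farther from retained ones. The median distance was 8.80 kb for gained and 3.68 kb for lost ACRs, and 21.4% of gained and 12.9% of lost ACRs were over 100 kb from the nearest retained ACR. Each distance was taken within the list of the ACR, and 64.4% of gained but 48.7% of lost ACRs were interior. The part of position and of the lists in these distances was not tested.

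Large clusters were more frequent among losses than among gains. With ACRs linked where at most 10 kb apart and 3 or more taken as a cluster, 25.1% of lost ACRs (24.7% to 25.5%) lay in 2777 clusters and 23.2% of gained ACRs (22.9% to 23.5%) in 4528. Clusters of 10 or more numbered 40 among lost ACRs, with 585 ACRs, and 4 among gained ACRs, with 41. The whole lists differed in the same direction, with 968 such clusters in the unvernalized and 733 in the vernalized list, and 60.5% and 57.4% of their ACRs lay in clusters of 3 or more. The largest held 49 lost and 11 gained ACRs, against 56 and 30 ACRs in the whole lists. Over windows of 1 Mb, the 1407 of 14074 windows with most lost ACRs held 45.1% of them, and the 1407 windows with most unvernalized ACRs held 39.9% of that list. For gained ACRs this value was 32.4%, against 34.7% for the vernalized list. By this measure losses were more concentrated than their list and gains less so. Windows were ranked by the counts of each class itself, and sparser counts tend to raise this share. Lost ACRs are fewer than their list, so the part of sparser counts in their higher value was not tested.

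One stretch of 400 kb on chromosome 5B lost nearly all of its ACRs. From 691100001 to 691500000 the unvernalized apex list held 132 ACRs, which covered 20.6% of the stretch, and the vernalized apex list 7, which covered 1.45%. Of the 132, 124 or 93.9% were lost, and none was gained. Clusters of 49, 26 and 22 lost ACRs lay here, the first and second of them the largest of all, from 691371333 to 691479912, from 691172228 to 691237399 and from 691253071 to 691320136. The change had sharp borders. In the 400 kb before it the apex lists held 10 and 8 ACRs, and in the 2 Mb after it 57 and 54.

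The other tissues did not follow the apex there. Leaf held 88 ACRs in the stretch before and 110 after vernalization, and axillary bud rose from 4 to 47. The count of the unvernalized apex was thus nearest to those of the leaf lists, and the count of the vernalized apex nearest to that of unvernalized bud. Of the 124 lost ACRs, 68 were called in leaf, 78 in vernalized leaf, 1 in axillary bud and 38 in vernalized axillary bud. The borders of the stretch were set after its values were seen, so these counts are a description.

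**Figure D5:**
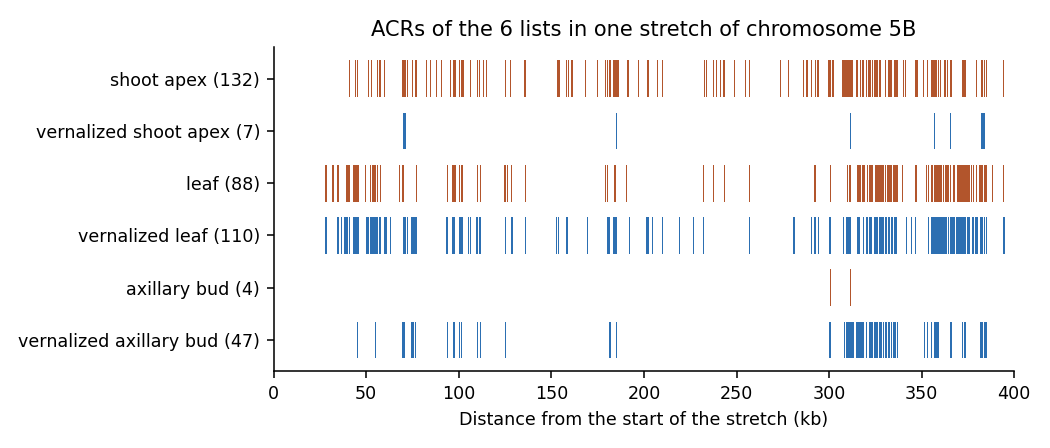
Position and width of every ACR of the 6 lists in the 400 kb stretch of chromosome 5B, as distance from its start (kb), with the number of ACRs of each list in parentheses. The unvernalized apex (132) and both leaf lists (88 and 110) hold ACRs over most of its length with some gaps, the vernalized apex (7) and unvernalized axillary bud (4) are nearly empty, and the vernalized axillary bud (47) is filled mainly beyond 300 kb.

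Outside chromosome 5B the largest cluster of lost ACRs had as many members as the third on 5B. On 6D from 3103804 to 3149540 there were 22 lost ACRs, and the apex lists held 29 ACRs before and 8 after. On 2A from 18271307 to 18317214 there were 20, with 26 ACRs before and 8 after. On 7A from 670653784 to 670714761 there were 19, with 19 before and 0 after. These 3 were chosen after the values on 5B were seen. The bud went against the apex on 6D, where its lists held 9 and 22 ACRs, and on 2A with 12 and 16. On 7A the bud lists held only 0 and 1.

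The windows of 1 Mb with most losses after that on 5B lay at chromosome ends. On 3D the window that starts at 613 Mb held 130 ACRs before and 85 after, with 66 lost. On 2A the window that starts at 2 Mb went from 106 to 59, on 6D that at 3 Mb from 97 to 44, and on 4D that at 509 Mb from 128 to 88. In each of these 4 windows the vernalized bud list was the longer of the bud lists, from 71 to 91 on 3D, from 65 to 78 on 2A, from 42 to 80 on 6D and from 103 to 107 on 4D.

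The windows with most gains were less one-sided. On 3B the window that starts at 819 Mb had 39 gained and 16 lost ACRs, and on 5A that at 688 Mb had 36 and 11. On 2D the window at 13 Mb had 36 gained and 39 lost, and on 2A that at 16 Mb had 34 and 35, so these were places of high turnover with little net change. On 5B the window at 659 Mb had 38 gained and 10 lost and went from 36 to 63 ACRs. The largest net rises, of 27 ACRs each, were there, on 2D at 591 Mb, from 12 to 39, and on 7D at 53 Mb, from 24 to 51. The unvernalized bud list held 39, 29 and 58 ACRs in these 3 windows. Of 8620 windows with at least 10 ACRs over both apex lists, 5754 had more ACRs after vernalization, 2138 had fewer and 728 had equal numbers.

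Clusters of gained ACRs were smaller. The largest, of 11 gained ACRs on chromosome 1A from 573920029 to 573945981, lay where the apex lists held 5 ACRs before and 12 after. On 3A from 738215423 to 738258573 there were 10 gained ACRs, with 6 before and 11 after. On 5A from 554055844 to 554078438 there were 10 gained ACRs where the unvernalized apex list held 0. In that last stretch leaf held 8 ACRs in both conditions, bud 6 and vernalized bud 9.

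The direction along the chromosome was reversed in axillary bud and had the same sign in leaf, with smaller differences. In axillary bud the interior fell by 7.84% in ACR number and the distal zones rose from 61738 to 69156 ACRs, the reverse of the apex order. There 27.8% of lost and 53.7% of gained ACRs were distal. In leaf the interior fell by 0.111% and the distal zones fell by 5.33%, and 35.9% of lost and 32.9% of gained ACRs were distal. Paired ACRs had a median width ratio of 0.931 in axillary bud and 0.925 in leaf. Among pairs with whole-bin edges on both sides it was 0.926 in axillary bud but 1 in leaf. Of these leaf pairs, 25.6% were narrowed and 16.1% widened at 1.5 times. The leaf median thus stood at 1 although more of these pairs narrowed than widened. With 1 list per tissue and condition these differences between tissues were not tested.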

How the data were processed

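As the study describes, the authors trimmed ATAC-seq reads with fastp 0.21.0, aligned them with Bowtie2 2.3.5.1 to IWGSC RefSeq v1.0, filtered by mapping quality with SAMtools 1.3.1, removed duplicates with Picard 2.16.0 and called peaks with MACS2 2.2.6. Peaks were cut into 150 bp bins that overlap by 50 bp. Bins with enough Tn5 insertions were kept and merged up to 200 bp apart. Peaks that overlapped input and those that aligned to chloroplast DNA were discarded. The part of this removal in the results was not tested. A width made of whole bins is 150 bp plus a multiple of 100 bp.

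The deposited values are positions of ACRs (chromosome, start, end; unit other), with no count, score or signal. All ACRs were used as deposited. Starts are given 1-based. ACRs were placed by their centre, and a chromosome was taken to end with its last ACR in any list. Named sites followed a rule set down with the design: the 3 widest apex-only ACRs, 3 pairs with the largest width change, 3 clusters and 5 windows per direction, 2 most divided ACRs per list, and chromosomes at the extremes. Members, rules and lists were chosen with earlier results of these data known. Functions for overlap, clusters and pairs were tested on simulated data. Computations ran in numpy 2.4.6 and scipy 1.17.1 under Python 3.11.15, and plots were drawn with matplotlib 3.10.9.

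Depth, gene annotation and sequence were not analysed here. Gene positions from another assembly were not used. Input was not analysed here.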

Additional observations from a re-analysis of the deposited data

Results flagged for a closer look

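In all, 3 values moved in opposite directions in the shoot apex and in the axillary bud under the same cold treatment. The number of ACRs in the chromosome interior changed by 29.6% in shoot apex, by -7.84% in axillary bud and by -0.111% in leaf. The distal share of gained minus that of lost ACRs was -15.7 percentage points in shoot apex, 26.0 in axillary bud and -2.95 in leaf. The median width ratio of paired ACRs was 1.09 in shoot apex, 0.931 in axillary bud and 0.925 in leaf, and with whole-bin edges on both sides it was 1.09, 0.926 and 1. The lists also started from unlike distal shares, with 62054 of 132696 ACRs distal in unvernalized apex and 61738 of 175599 in unvernalized bud. After vernalization these were 63121 of 154639 and 69156 of 174089. Each tissue has 1 list per condition, and the differences between tissues were not tested. The share of whole-bin widths, which was 12.9% and 77.6% in the apex lists, also differed between lists, and its part in these values was not tested beyond the values within each kind of edge.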

How the results depend on the processing

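No paired analysis was possible because each condition has 1 list, and for the same reason no replicate could be left out. Gained ACRs outnumbered lost ACRs under all 9 settings run. This order depends on list length and was not tested apart from it. The excess was smaller with an equal number of ACRs kept in each list, the widest, at 51861 gained and 47695 lost. There it only says that more ACRs were retained in the unvernalized list. Gained ACRs had the lower distal share under all 8 settings run for it. The share called in a list of another tissue was higher for gained than for lost ACRs under the 5 settings run. Vernalized bud and unvernalized leaf were 1 setting each, and the others used unvernalized bud. In vernalized leaf, not among these settings, the order was the other way, 17.4% of gained and 24.9% of lost ACRs. Clustered shares had no fixed order: gained ACRs were above lost ones under 2 of 5 settings. Counts moved by over 1.5 times with ACRs of at least 500 bp in both lists (30371 gained, 15549 lost), with these set against all ACRs of the other list (15551 and 7278), and for lost ACRs with a reciprocal overlap of at least 50% (79656) and, added after seeing the data, with ACRs up to 1 kb apart joined (27273). Distal shares of gained and lost ACRs were 18.8% and 34.9% for the outer 5%, 60.2% and 69.7% for the outer 20%, 38.8% and 48.1% with reciprocal overlap, and 36.6% and 52.3% at 500 bp or more. The gained share was 37.4% with 500 bp around the centre and, added after seeing the data, 36.3% without whole-bin widths. The D share of lost ACRs was 33.4% at 500 bp or more. Clustered shares of gained and lost ACRs were 14.5% and 15.7% with links of 5 kb, 47.2% and 46.1% with 50 kb, 39.6% and 44.9% with reciprocal overlap, and 9.91% and 9.47% at 500 bp or more. Leaving out chromosome 5B, also added later, gave 24.9% for lost ACRs. The shares of gained and lost ACRs called in bud were 62.5% and 36.2% at 50% overlap, 82.3% and 54.3% for ACRs of at least 500 bp, 65.4% and 43.1% in vernalized bud, and 29.3% and 21.5% in leaf. The D share was higher for gained than for lost ACRs under all 4 settings, and in the main setting both were near the D share of retained ACRs. The width ratio was 1.13 without whole-bin widths and 1.03 with both widths at least 500 bp. The widened share was 28.1% with whole bins on both sides, 29.4% with neither, 26.4% with summed widths and 14.3% at 500 bp or more. The remaining alternatives stayed within 1.5 times the count or within the interval of the share or median. Lists without read counts limit what can be said, since an ACR just under the caller's threshold in one list counts as lost or gained.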
